A study of Mus musculus with 26 samples.

Results

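The lactate and aldehyde dehydrogenases are 10 genes of fuel and aldehyde oxidation, measured here in mouse brown fat among RNAs recovered with the RNA-binding protein IMP2. They were taken by gene symbol from the deposited count tables: Ldhd, Ldha, Ldhb, Aldh2, Aldh1a1, Aldh3a2, Aldh4a1, Aldh6a1, Aldh9a1 and the hydroxyacid oxidoreductase Adhfe1. Where a symbol had several transcripts, the one with the most counts over the table stands for it. All 10 are among the 9378 genes of 1 table, and 4 of them, Ldhd, Ldhb, Aldh2 and Adhfe1, are also among the 1189 genes of the other. Ldhd and Aldh2 were chosen by measured values, their ratios of IMP2 immunoprecipitate to total RNA at or near the top of the smaller table in both genotypes, and the other members are their relatives.

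The study made RNA immunoprecipitation libraries from brown fat of male mice aged 10 weeks, on the C57Bl/6J background and normal chow, that had spent a night at 4 °C. The table called here the knockout table holds 8 libraries, 2 in each of 4 groups: wild-type total RNA (libraries 16 and 17), Imp2-/- total RNA (18 and 19), wild-type IMP2 immunoprecipitate (21 and 22) and Imp2-/- IMP2 immunoprecipitate (23 and 24). The table called the IgG table holds 4 further wild-type libraries: total RNA (15 and 20), 1 IMP2 immunoprecipitate (25) and 1 immunoprecipitate with nonspecific IgG (26). Wild-type and Imp2-/- animals were littermates from heterozygous parents, and every group had the same cold exposure. The labels do not say whether libraries of a group came from separate mice, so p-values measure the spread between libraries, which may be technical. The 14 liver samples of the series were not analysed here.

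Lactate dehydrogenases move electrons between lactate and pyruvate: Ldha and Ldhb encode the subunits of the cytosolic enzyme for L-lactate, and Ldhd encodes the mitochondrial enzyme that oxidises D-lactate to pyruvate. Aldehyde dehydrogenases oxidise reactive aldehydes to acids, each in its own pathway, and several work inside mitochondria. Brown fat is packed with mitochondria that burn fuel for heat through Ucp1. IMP2, the product of Igf2bp2, binds mRNAs and is known in this tissue for its hold on mRNAs of mitochondrial proteins. An immunoprecipitate from an Imp2-/- mouse, or one made with nonspecific IgG, measures the RNA that comes down without binding to IMP2.

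Summed counts of the genes used ran from 780333 to 4916160 per library in the knockout table and from 1321756 to 3750103 in the IgG table. Levels are CPM, a library's counts brought to a common total with TMM scaling (a trimmed mean over genes) within a table, and, since transcript lengths were not used here, they are compared between libraries and not between genes. The knockout table is a selection, in which every gene has at least 101 counts in each wild-type library. Markers of brown adipocytes were high in every library, with summed levels of 41879 to 50913 CPM over the 8 of 12 listed in the knockout table and 23548 to 29496 CPM over all 12 in the IgG table, and none at 0. Skeletal muscle markers varied: over the 8 of 17 listed in the knockout table they summed to 2701 and 10515 CPM in wild-type total RNA, 596 and 2470 in Imp2-/- total RNA, 1540 and 7248 in wild-type and 363 and 1384 in Imp2-/- immunoprecipitates. Over all 17 in the IgG table they summed to 19518 and 10346 CPM in total RNA, 10373 with IMP2 and 7276 with IgG, and none was at 0. Of 4 liver markers none is listed in either table. Igf2bp2 itself is not listed in the knockout table, so the deletion could not be checked there. In the wild-type libraries of the IgG table it stood at 14.1 and 6.06 CPM in total RNA, 6.29 with IMP2 and 3.91 with IgG.

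Ldhd and Aldh2 stood well above total RNA in immunoprecipitates from wild-type and from Imp2-/- tissue. Ldhd (chr8:111625611-111630336, GRCm38) stood at 128 and 117 CPM in wild-type total RNA and at 403 and 429 CPM in wild-type immunoprecipitates. In Imp2-/- mice, which by their label lack the target of the antibody, it stood at 129 and 126 CPM in total RNA and 448 and 391 CPM in immunoprecipitates. All 4 immunoprecipitates were above all 4 total RNA libraries. The log2 ratio of immunoprecipitate to total RNA was 1.76 ± 0.14 (standard error of the fit, SE, n = 2 libraries per group) in wild-type and 1.71 ± 0.13 in Imp2-/- mice, each the highest of 1189 genes. These ratios chose the gene and are given as a description.

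Aldh2 (chr5:121566027-121593824), the mitochondrial enzyme that clears acetaldehyde and the aldehydes of lipid peroxidation, stood at 178 and 171 CPM in wild-type total RNA and at 440 and 488 CPM in wild-type immunoprecipitates. In Imp2-/- mice it stood at 219 and 236 CPM in total RNA and 502 and 520 CPM in immunoprecipitates. Its log2 ratio was 1.41 ± 0.14 in wild-type, rank 2 of 1189, and 1.16 ± 0.13 in Imp2-/- mice, rank 5. Next below it in wild-type was Trap1 at 1.27, and in Imp2-/- mice Pttg1 at 1.08. Ahead of it in Imp2-/- mice, after Ldhd, were Mospd3 at 1.29, Bcat2 at 1.20 and Mipep at 1.18.

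The other listed members had ratios near 0 in the same libraries. Ldhb (chr6:142490249-142507957), the heart-type subunit of L-lactate dehydrogenase, stood at 762 and 782 CPM in wild-type and 881 and 781 in Imp2-/- total RNA, and at 906 and 749 CPM in wild-type and 893 and 820 in Imp2-/- immunoprecipitates. The groups overlapped, with log2 ratios of 0.10 ± 0.13 in wild-type and 0.04 ± 0.13 in Imp2-/- mice. Adhfe1 (chr1:9547948-9577970), which encodes a mitochondrial enzyme that oxidises gamma-hydroxybutyrate, had log2 ratios of -0.17 ± 0.14 and 0.04 ± 0.13. In wild-type libraries, groups did not overlap for Ldhd, Aldh2 and Adhfe1, 3 of the 4 members, as for 66.0% of all genes. In Imp2-/- libraries they did not overlap for Ldhd and Aldh2, 2 of the 4, as for 66.5% of all genes. Of all genes, 9.92% passed as higher and 12.4% as lower in wild-type (22.4% in all), and 10.6% as higher and 15.7% as lower in Imp2-/- libraries (26.3%). Unadjusted, 38.4% and 41.4% had a p under 0.05. Nothing is read from these shares, since the ratios chose the genes.

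**Figure D1:**
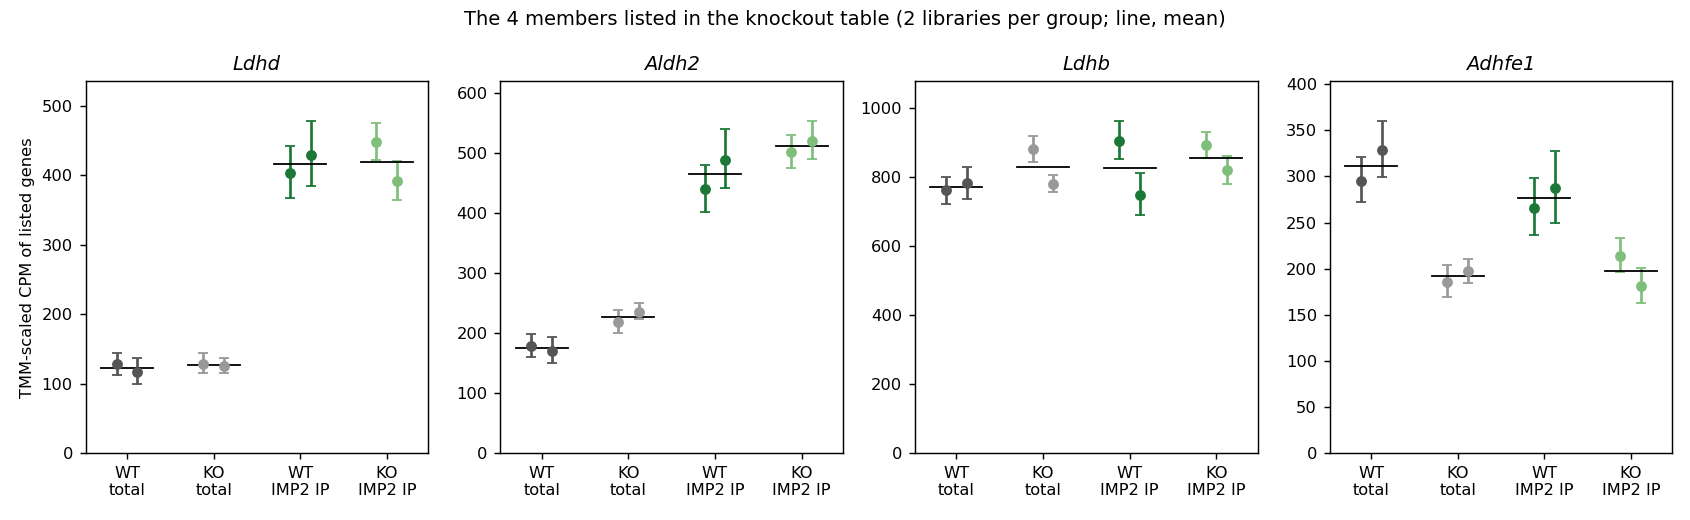
Level of Ldhd, Aldh2, Ldhb and Adhfe1 in the 8 libraries of the knockout table, as TMM-scaled CPM on a linear axis from 0. Points are libraries, bars their exact Poisson intervals at 95%, and lines group means. Ldhd and Aldh2, chosen by this contrast, are higher in every immunoprecipitate than in every total RNA library in both genotypes. Adhfe1 is lower in the Imp2-/- total RNA libraries (186 and 198 CPM) than in the wild-type ones (295 and 328 CPM).

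Recovery that depends on IMP2 more than that of the other listed genes would show as a higher ratio in wild-type than in Imp2-/- mice. The difference of the log2 ratios was 0.24 ± 0.19 for Aldh2, 0.06 ± 0.18 for Ldhb, 0.05 ± 0.19 for Ldhd and -0.22 ± 0.19 for Adhfe1, with an adjusted p of 0.999 for each in edgeR's quasi-likelihood test. Thus 0 of 4 members passed, as did 0% of the 1189 genes. DESeq2 and limma-voom also called 0 genes, and at an unadjusted p under 0.05 edgeR gave 29 genes (2.44%), none of them a member. This difference shares its libraries with the ratios that chose Ldhd and Aldh2. Its lowest value in the knockout table is -0.30 and its highest 0.81, and whether the selection of genes used it is not given in the sources used here. Scaling over the genes of this table sets the median of the difference near 0. A dependence on IMP2 shared by most listed genes would therefore not show. With total RNA and immunoprecipitate libraries matched in a possible pairing that the labels do not give, 0 genes passed as well, and the adjusted p was 0.485 for Aldh2, 0.553 for Adhfe1, 0.868 for Ldhb and 0.914 for Ldhd.

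The immunoprecipitates of both genotypes can also be compared directly, without their total RNA and again relative to the other listed genes. Wild-type over Imp2-/- immunoprecipitate had a log2 ratio of -0.01 ± 0.13 for Ldhd (adjusted p = 0.968, edgeR), -0.05 ± 0.13 for Ldhb (0.869) and -0.14 ± 0.13 for Aldh2 (0.593). Adhfe1 stood at 266 and 287 CPM in wild-type and 214 and 181 CPM in Imp2-/- immunoprecipitates, a log2 ratio of 0.48 ± 0.14 with an adjusted p of 0.165. The groups did not overlap for Adhfe1, higher in wild-type, nor for Aldh2, lower in wild-type, so for 2 of 4 members, beside 51.2% of all genes. edgeR called 0 members and 0% of all genes, with 211 genes (17.7%) at an unadjusted p under 0.05. DESeq2 called 60 genes higher and 33 lower, no member among them, and limma-voom 0.

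In total RNA, Adhfe1 had the largest difference between genotypes among the members. It stood at 295 and 328 CPM in wild-type and 186 and 198 CPM in Imp2-/- brown fat. The groups did not overlap, and the log2 ratio of Imp2-/- to wild-type was -0.70 ± 0.13, place 19 from the bottom of 1189 genes. In edgeR its adjusted p was 0.201 (unadjusted 0.000678), as 0 of 4 members and 0% of all genes passed. DESeq2 gave an adjusted p of 0.00169 for the same log2 ratio, in a comparison where it called 18 genes higher and 17 lower, and limma-voom gave 0.158. Leaving out any 1 of the 8 libraries moved the log2 ratio no further than to -0.62 or -0.77. In bulk tissue, fewer cells of a type and less RNA per cell cannot be told apart.

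Muscle markers were also lower in Imp2-/- total RNA, with a median log2 ratio of -2.01 over the 8 listed, none of which passed. The muscle marker sum was 2701 and 10515 CPM in wild-type libraries 16 and 17, where Adhfe1 stood at 295 and 328 CPM, and 596 and 2470 CPM in Imp2-/- libraries 18 and 19, where Adhfe1 stood at 186 and 198 CPM. In total RNA of each genotype Adhfe1 was higher in the library with the higher muscle marker sum. So it was in wild-type immunoprecipitates 21 and 22, with sums of 1540 and 7248 CPM and Adhfe1 at 266 and 287 CPM. Imp2-/- immunoprecipitates 23 and 24 went the other way, with sums of 363 and 1384 CPM and Adhfe1 at 214 and 181 CPM. The part of muscle tissue in the difference of Adhfe1 was not tested.

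Aldh2 was higher in Imp2-/- total RNA, at 219 and 236 CPM beside 178 and 171 CPM. The groups did not overlap, but the log2 ratio of 0.38 ± 0.13 had an adjusted p of 0.367 in edgeR. Ldhb differed by 0.11 ± 0.13 (adjusted p = 0.776) and Ldhd by 0.06 ± 0.13 (0.902), with overlapping groups. At an unadjusted p under 0.05 edgeR gave Adhfe1 and Aldh2 among 132 genes (11.1%), and groups did not overlap for 43.1% of all genes.

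The IgG table gives libraries that the ratios choosing Ldhd and Aldh2 did not use, though its comparisons were chosen with earlier results known. In these libraries both mRNAs stood above total RNA with nonspecific IgG as well as with IMP2. Ldhd stood at 54.9 and 71.3 CPM in total RNA, 149 CPM with IMP2 and 154 CPM with IgG. Both immunoprecipitates were above both total RNA libraries. The log2 ratio to total RNA was 1.23 ± 0.40 with IMP2 (adjusted p = 0.14, edgeR) and 1.28 ± 0.39 with IgG (adjusted p = 0.0535), so neither passed. For IgG the adjusted p ran from 0.0223 to 0.264 over the alternatives fitted on this table and was under the threshold in 4 of them.

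Aldh2 stood at 62.6 and 108.4 CPM in total RNA, 212 CPM with IMP2 and 269 CPM with IgG. Its log2 ratio was 1.30 ± 0.39 with IMP2 (adjusted p = 0.0823, edgeR) and 1.64 ± 0.38 with IgG (adjusted p = 0.00413), a 3.12-fold rise that passed the threshold. In DESeq2 the calls of Aldh2 and Aldh6a1 with IgG were lost, with an adjusted p of 0.0946 for each. It ranked 87 of 8966 genes with IgG and 132 with IMP2, and Ldhd ranked 270 and 164. The total RNA libraries of Aldh2 differed 1.73-fold from each other, and the ratio of library 26 was 4.3 (95% interval 3.46 to 5.4, counting error only) to library 15 and 2.49 (2.18 to 2.84) to library 20.

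Aldh4a1 (chr4:139622871-139649691), the mitochondrial enzyme that makes glutamate in the last step of proline breakdown, came next in both immunoprecipitates. It stood at 175 and 210 CPM in total RNA, 362 CPM with IMP2 and 295 CPM with IgG, with no overlap. Neither log2 ratio passed: 0.91 ± 0.39 with IMP2 (adjusted p = 0.434) and 0.61 ± 0.39 with IgG (0.483), both in edgeR.

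Aldh6a1 (chr12:84430717-84451024), the mitochondrial enzyme that turns methylmalonate semialdehyde from valine and thymine into an acyl-CoA, went the other way. It stood at 97.1 and 189 CPM in total RNA, 47.1 CPM with IMP2 and 41 CPM with IgG. Both immunoprecipitates were below both total RNA libraries, which differed 1.95-fold from each other. It fell with IgG, by a log2 ratio of -1.81 ± 0.45 (adjusted p = 0.00713, edgeR), place 126 from the bottom of 8966 genes. With IMP2 the log2 ratio was -1.61 ± 0.46 and missed the threshold at an adjusted p of 0.0515, which ran from 0.0403 to 0.485 over the alternatives and was under the threshold in 4 of them. Without total RNA library 15 the log2 ratios were -1.99 with IMP2 and -2.21 with IgG, and without library 20 they were -1.04 and -1.23. The ratio of library 26 was 0.423 (95% interval 0.335 to 0.533, counting error only) to library 15 and 0.217 (0.181 to 0.259) to library 20.

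Ldha (chr7:46842274-46855627), the muscle-type subunit of L-lactate dehydrogenase, was also lower in immunoprecipitates. It stood at 3129 and 3741 CPM in total RNA, 2217 CPM with IMP2 and 1381 CPM with IgG. Its log2 ratio was -0.63 ± 0.43 with IMP2 (adjusted p = 0.775, edgeR) and -1.31 ± 0.44 with IgG (0.0903), so neither passed. Ldhb, its partner subunit, stood at 246 and 342 CPM in total RNA, 319 CPM with IMP2 and 418 CPM with IgG. The log2 ratios of Ldhb were 0.12 ± 0.40 and 0.51 ± 0.39, and neither passed.

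Muscle and blood markers were measured in the same libraries. The median log2 ratio to total RNA of the 17 muscle markers was -0.66 with IMP2, where 1 passed as lower, and -1.16 with IgG, where 5 did. The 6 of 7 erythroid markers in the table summed to 4678 and 3307 CPM in total RNA, 2334 with IMP2 and 1306 with IgG. With the muscle marker sums of 19518 and 10346 CPM in total RNA libraries 15 and 20, 10373 with IMP2 and 7276 with IgG, Ldha stood at 3129, 3741, 2217 and 1381 CPM and Aldh6a1 at 97.1, 189, 47.1 and 41 CPM. The total RNA library with the lower muscle marker sum had the higher Ldha and Aldh6a1. The part of muscle and blood in the ratios of Ldha and Aldh6a1 was not tested.

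The remaining members had low counts or ratios close to their error, and none passed. Aldh1a1 (chr19:20492583-20643463), a cytosolic enzyme that makes retinoic acid from retinal, stood at 36.6 and 17.1 CPM in total RNA, 10.2 CPM with IMP2 and 11 CPM with IgG. Its log2 ratios were -1.35 ± 0.65 (adjusted p = 0.546, edgeR) and -1.25 ± 0.57 (0.273), from 13 to 52 counts per library, and -0.73 and -0.63 without total RNA library 15. Aldh1a7 is a close mouse copy of Aldh1a1, and how reads were divided between them is not given in the sources used here, so the values of Aldh1a1 are uncertain.

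Aldh9a1 (chr1:167349963-167368530), an enzyme of carnitine synthesis, stood at 66.1 and 67.5 CPM in total RNA, 95.8 CPM with IMP2 and 76 CPM with IgG. Its log2 ratios were 0.52 ± 0.42 and 0.18 ± 0.41. Adhfe1 stood at 146 and 108.4 CPM in total RNA, 144 CPM with IMP2 and 134 CPM with IgG, with log2 ratios of 0.18 ± 0.41 and 0.08 ± 0.40, which turned to -0.02 and -0.11 without total RNA library 20. Aldh3a2 (chr11:61223417-61267528), the fatty aldehyde dehydrogenase of the endoplasmic reticulum, had 9 and 8 counts in total RNA, 7 with IMP2 and 26 with IgG. At this depth no difference in Aldh3a2 was detectable, with log2 ratios of 0.32 ± 0.92 and 0.52 ± 0.76.

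**Figure D2:**
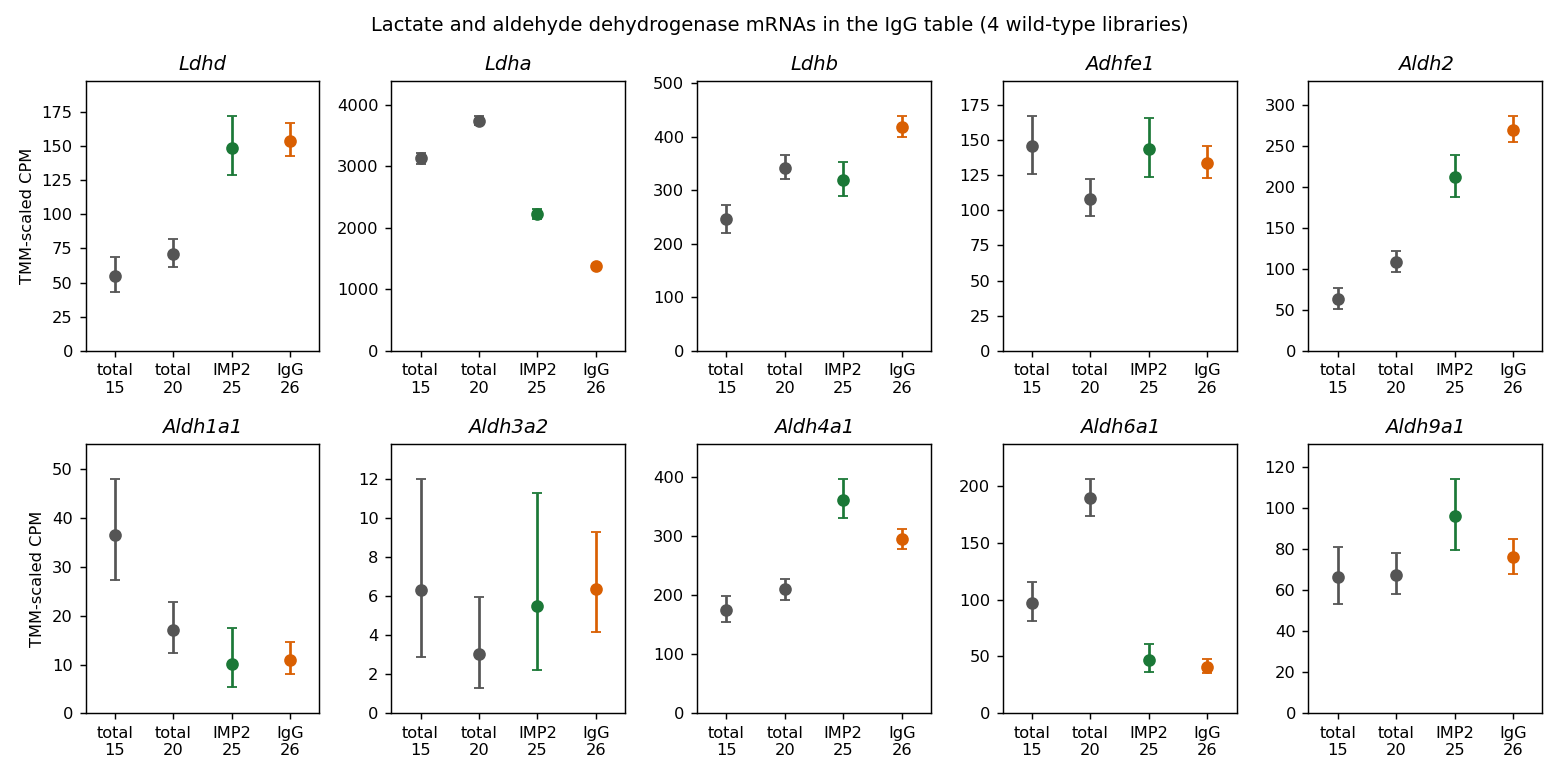
Level of each of the 10 members in the 4 wild-type libraries of the IgG table, as TMM-scaled CPM on linear axes from 0, with exact Poisson intervals at 95% that cover counting error only. Ldhd and Aldh2 are higher in both immunoprecipitates than in both total RNA libraries, and Aldh6a1, Ldha and Aldh1a1 are lower.

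Over the members, 0 of 10 passed between IMP2 immunoprecipitate and total RNA, where 0.903% of the 8966 genes did (0.0446% higher and 0.859% lower). Unadjusted, 709 genes (7.91%) had a p under 0.05. Between IgG immunoprecipitate and total RNA 2 of 10 passed, Aldh2 higher and Aldh6a1 lower, where 2.0% of all genes did (0.480% higher and 1.52% lower, and 14.4% at an unadjusted p under 0.05). With IMP2, groups did not overlap for 7 of the 10, with 4 higher and 3 lower, beside 69.9% of all genes. With IgG they did not overlap for 9, with 6 higher and 3 lower, beside 74.2% of all genes. The share of members with IMP2 is near that of all genes. The median log2 ratio of the 10 was 0.25 with IMP2 and 0.35 with IgG, beside -0.03 and -0.01 for all genes. The 10 include Ldhd and Aldh2, chosen for high ratios in the knockout table, so a higher median was favoured by the choice. Both comparisons use the same total RNA libraries, and their values stand side by side for that reason.

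**Figure D3:**
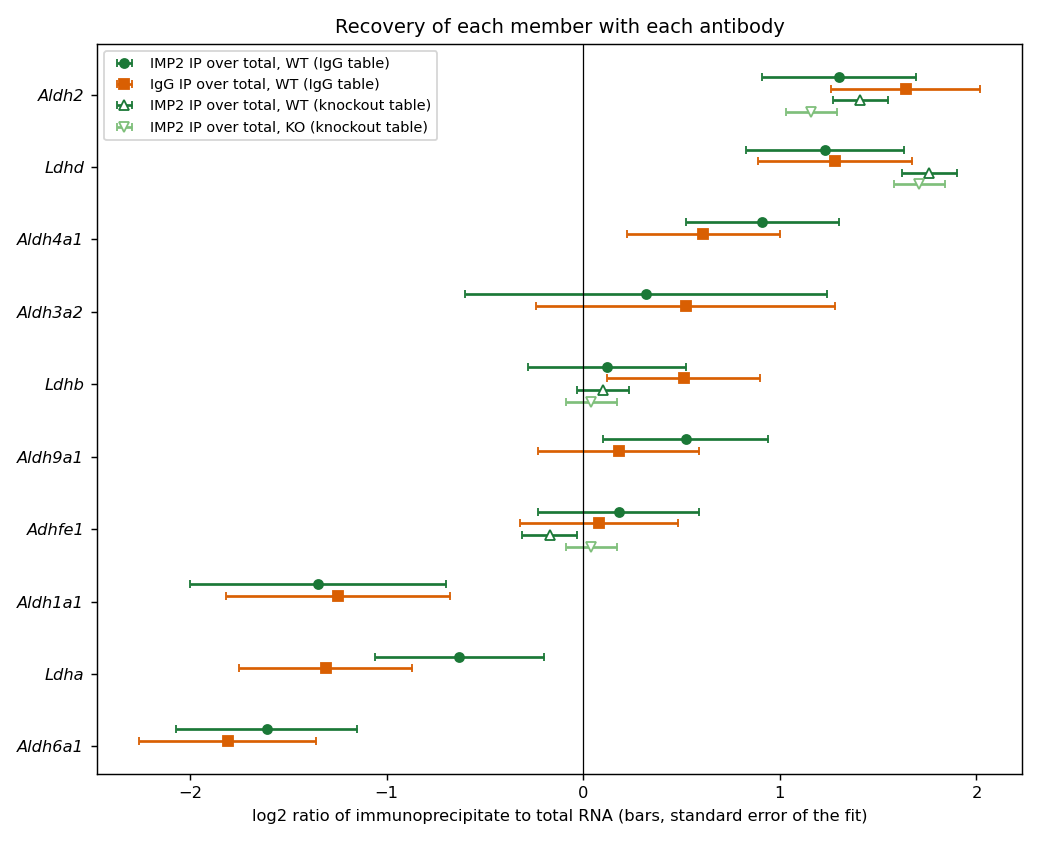
Log2 ratio of immunoprecipitate to total RNA for each member, with bars for the SE of the fit. Filled symbols are the IgG table (IMP2, circles; IgG, squares), open symbols the knockout table (wild-type, upward triangles; Imp2-/-, downward triangles), which lists 4 members. Aldh2 and Ldhd lie above 1 in all 4 ratios, the Imp2-/- and IgG ones included, and Aldh6a1 lies at -1.61 with IMP2 and -1.81 with IgG. The ratios of the knockout table chose Aldh2 and Ldhd, and those of the IgG table share their total RNA libraries.

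**Figure D4:**
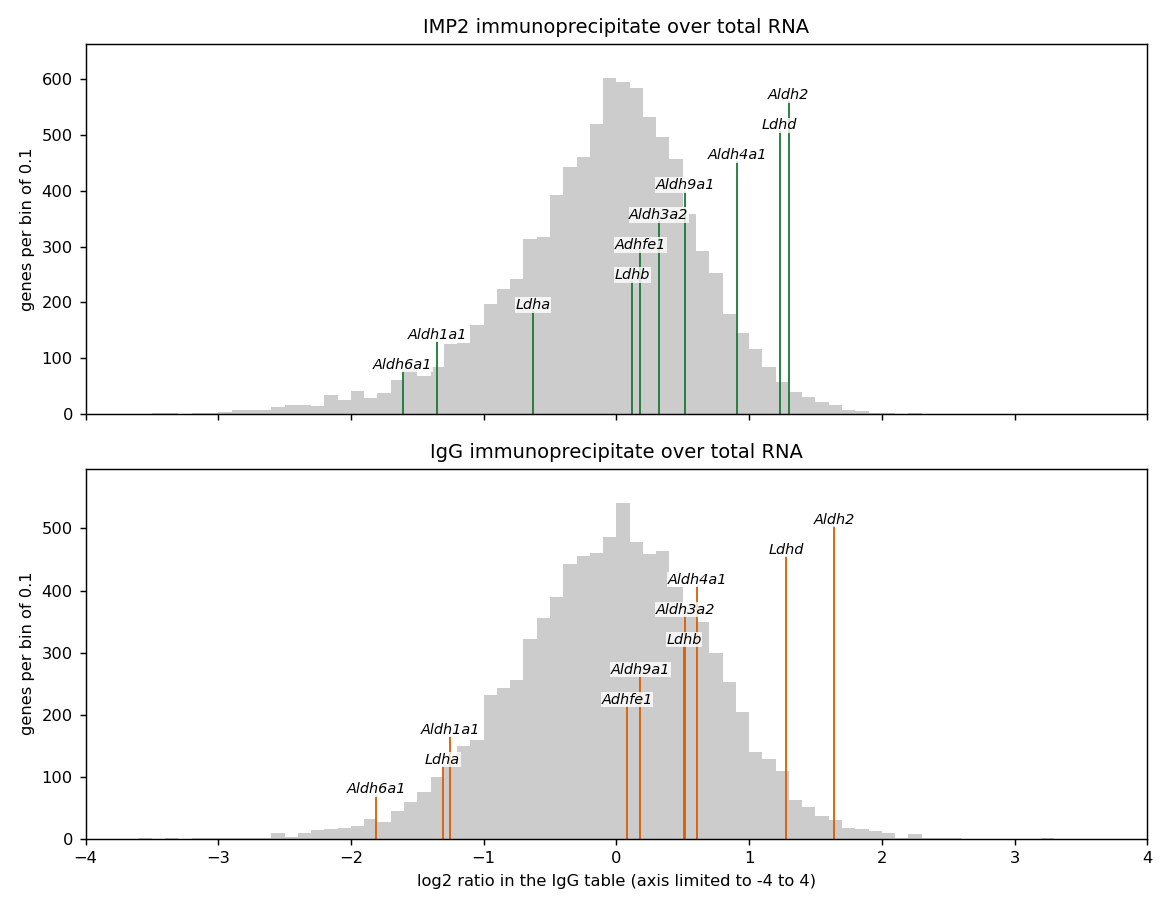
Distribution of log2 ratios to total RNA over 8966 genes of the IgG table (grey, genes per bin of 0.1) with the 10 members marked by lines, whose heights only separate the names. Aldh2 and Ldhd lie in the upper tail and Aldh6a1 in the lower tail with either antibody.

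Set against IgG directly, no member passed with IMP2. The log2 ratio of IMP2 to IgG immunoprecipitate was -0.05 ± 0.47 for Ldhd and -0.34 ± 0.46 for Aldh2, and it ran from -0.39 ± 0.46 for Ldhb to 0.68 ± 0.48 for Ldha. The lowest adjusted p among members was 0.885 in edgeR, and 0 of 10 passed, where 0.234% of all genes did (0.0558% higher and 0.178% lower). At an unadjusted p under 0.05 edgeR gave 565 genes (6.30%), no member among them, and DESeq2 and limma-voom called 0 members. This compares 1 library with 1, with a spread taken from the total RNA libraries.

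By counting error alone these 2 libraries did differ for some members. The level of Ldha with IMP2 was 1.6 times that with IgG (95% interval 1.53 to 1.68), that of Aldh4a1 1.23 times (1.1 to 1.37) and that of Aldh9a1 1.26 times (1.01 to 1.56). The level of Ldhb with IMP2 was 0.763 times that with IgG (0.683 to 0.85) and that of Aldh2 0.787 times (0.687 to 0.9). For Ldhd the ratio was 0.967 (0.818 to 1.14). Such intervals compare the libraries and not the antibodies. The share of all genes whose interval leaves out 1 was not counted, so nothing is read from these members.

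With all 12 libraries on 1 scale, over the 1189 genes of both tables, the 4 members listed in both can be lined up. Ldhd ran from 98.4 to 129 CPM in the 4 wild-type total RNA libraries and from 242 to 420 CPM in the 3 wild-type IMP2 immunoprecipitates. The IgG immunoprecipitate, at 308 CPM, lay inside that range of IMP2 immunoprecipitates. Aldh2 ran from 112 to 197 CPM in wild-type total RNA and from 344 to 478 CPM in wild-type IMP2 immunoprecipitates, and at 537 CPM the IgG immunoprecipitate was above them all. Adhfe1 ran from 197 to 316 CPM in wild-type total RNA, and both Imp2-/- total RNA libraries, at 178 and 190 CPM, were below that range. Ldhb stood at 739 and 754 CPM in wild-type total RNA of the knockout table and at 440 and 621 CPM in that of the IgG table. Its wild-type IMP2 immunoprecipitates stood at 897 and 733 CPM and at 517 CPM, and the IgG one at 833 CPM. The wild-type ranges span both tables, so differences between tables are part of them. The share of all genes with such separations was not counted, so nothing is read from those of the members.

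A model over both tables, chosen after the data had been seen, took each group of each table as its own mean, so that its ratios rest on the IgG table's libraries and the spread is shared. Its scaling is taken over the 1189 genes, and the ratios move with it, as that of IMP2 to IgG did from -0.05 to -0.35 for Ldhd and from -0.34 to -0.64 for Aldh2. In edgeR on these 1189 genes, Ldhd rose with IgG by a log2 ratio of 1.42 ± 0.20 (adjusted p = 0.00649) and Aldh2 by 1.77 ± 0.25 (adjusted p = 0.00649), where 7.74% of genes rose. With IMP2, Ldhd rose by 1.07 ± 0.21 (adjusted p = 0.0387), where 0.673% of genes rose, and Aldh2 missed at 1.13 ± 0.26 (0.0532). The SE of these IMP2 to IgG ratios was 0.23 for Ldhd (adjusted p = 0.555) and 0.30 for Aldh2 (0.357).

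The genes whose levels most resembled Ldhd over the 12 libraries, by Pearson's r of log2 CPM centred within each table, were Mipep (r = 0.981), Acadvl (0.978), Isoc2a (0.976), Immt (0.965) and Ndufs7 (0.965), out of 1127 genes. For Aldh2 they were Mrpl4 (0.976), Trap1 (0.975), Urgcp (0.973), Lonp1 (0.960) and Ndufv1 (0.958). Mipep and Lonp1 encode mitochondrial proteases, Acadvl an enzyme of fatty acid oxidation, and Ndufs7 and Ndufv1 subunits of respiratory complex I. The share of genes for mitochondrial proteins among the 1127 was not counted, so nothing is read from these functions. Ldhd and Aldh2 had an r of 0.953 with each other, and Ldhd had 0.479 with Ldhb and 0.000 with Adhfe1. Genes share the total and depth of each library, and most of the spread lies between total RNA and immunoprecipitates. That contrast, in the libraries of the knockout table that are among the 12, chose Ldhd and Aldh2. A high r between them, and a lower one with Ldhb and Adhfe1, was therefore favoured by the choice.

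Further genes of the same pathways, from lists drawn up with earlier results known, gave few calls in the IgG table. Of 14 other aldehyde dehydrogenases 6 were tested and 0 passed with either antibody, with a median log2 ratio of 0.25 with IMP2 and 0.56 with IgG. Aldh5a1, the mitochondrial succinate semialdehyde dehydrogenase, stood at 29.5 and 46.2 CPM in total RNA, 65.2 CPM with IMP2 and 58.6 CPM with IgG (log2 ratios of 0.76 ± 0.44 and 0.61 ± 0.42). Aldh1a7 had log2 ratios of -0.60 ± 0.44 and -0.36 ± 0.42.

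Of 24 genes of lactate and pyruvate handling 18 were tested and 0 passed with either antibody (medians 0.02 and 0.07). Slc16a1, a lactate transporter of the plasma membrane, stood at 279 and 208 CPM in total RNA, 150 CPM with IMP2 and 113 CPM with IgG. Bsg, its chaperone, had log2 ratios of -0.56 ± 0.43 and -1.18 ± 0.44. Pdp2, a phosphatase that activates pyruvate dehydrogenase, had log2 ratios of 1.06 ± 0.46 and 0.70 ± 0.44.

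For methylglyoxal and D-hydroxy acid metabolism, the routes that make and remove D-lactate among them, 11 gene symbols were listed. Of these 10 were tested and 0 passed (medians 0.06 and 0.29). Hagh, which releases D-lactate in the glyoxalase pathway, had log2 ratios of -0.53 ± 0.53 with IMP2 and -0.55 ± 0.48 with IgG. Idh2, the mitochondrial isocitrate dehydrogenase, had 0.86 ± 0.39 and 0.93 ± 0.38. Of 18 gene symbols for alcohol and carbonyl reductases and related enzymes 13 were tested and 0 passed (medians 0.14 and 0.05). Among them Adh5 had 0.96 ± 0.51 and 0.58 ± 0.48.

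Of 38 partner enzymes in the pathways of single members 29 were tested, and 1 passed as lower with IMP2 and 0 with IgG (medians -0.10 and -0.26). The 1 was Dbt, in the valine route that ends at Aldh6a1. Around Aldh3a2, Phyh, a peroxisomal enzyme of phytanic acid breakdown, stood at 492 and 494 CPM in total RNA, 192 CPM with IMP2 and 198 CPM with IgG, and its adjusted p was 0.109 and 0.0696. Around Aldh4a1, Prodh, the first enzyme of proline breakdown, had log2 ratios of 0.56 ± 0.45 and 0.83 ± 0.42. Around Aldh1a1, Rbp4, a carrier of retinol, had -0.92 ± 0.44 and -1.19 ± 0.43.

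Between Imp2-/- and wild-type total RNA, 1, 7, 3, 2 and 10 genes of these 5 lists were listed, and 0 passed in edgeR. The largest difference was that of Glud1, the glutamate dehydrogenase downstream of Aldh4a1, at 338 and 364 CPM in wild-type and 261 and 232 CPM in Imp2-/- total RNA (log2 ratio -0.51 ± 0.17, adjusted p = 0.367).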

How the data were processed

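Total RNA and immunoprecipitates of mouse brown fat were sequenced. The authors deposited unscaled whole-number counts of reads for each RefSeq transcript. The submitters' processing notes name TopHat2 2.0.8, Cufflinks 2.1.1 and mm10, without saying which made the counts. How transcripts of the knockout table were selected is not given in the sources used here. Of 1579 and 12840 transcripts in the knockout and IgG tables, 3 and 22 had no name in the file or in RefSeq (GRCm38.p6, also used for gene positions) and were left out (8.65 to 29.2% and 7.39 to 15.8% of counts). Adhfe1 has a pair of transcripts with identical counts in each table and Ldha a pair with nearly the same, of which 1 was kept.

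After TMM scaling, all genes of a table were fitted and tested by quasi-likelihood in edgeR 4.0.16 (R 4.3.3), with Benjamini-Hochberg adjustment and a threshold of 0.05. edgeR's filter on low counts left all 1189 genes of the knockout table and 8966 of 9378 in the IgG table. Residual degrees of freedom were 4 and 1, or 5 with both tables. The spread of single libraries (25 and 26) is assumed to be that of the others. Intervals of single libraries are exact Poisson intervals at 95%. Fits were tested on simulated data. DESeq2 1.42.0, limma-voom (limma 3.58.1), other scalings, filters and row choices, and leaving out each library were alternatives. The labels pair no libraries. The members, lists and comparisons were chosen with earlier results of these data known. Named genes are the members, list genes that pass and up to 2 at each end of a list per comparison, and the 5 genes most like Ldhd and Aldh2.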

Additional observations from a re-analysis of the deposited data

How the results depend on the processing

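The number of members that passed changed with the processing in 3 comparisons. Between Imp2-/- and wild-type total RNA it was 0 in edgeR and 1, Adhfe1, in DESeq2. Between IMP2 immunoprecipitate and total RNA in the IgG table it was 0, and it was 1 with upper-quartile scaling (Aldh6a1, adjusted p = 0.0458 in edgeR), library size alone (0.0433), no filter (0.0495) and a mean of at least 5 CPM (0.0403), and 1 with both tables in a model (Ldhd). Between IgG immunoprecipitate and total RNA it was 2, and 0 in DESeq2, where Aldh2 and Aldh6a1 had an adjusted p of 0.0946 each. Aldh6a1 with IMP2 did not pass with relative log expression scaling (0.0544), rows of a symbol summed (0.0549), unnamed rows kept (0.0529), limma-voom (0.116) or DESeq2 (0.485). Ldhd with IgG passed in edgeR with upper-quartile scaling (0.037), library size alone (0.0223), no filter (0.0481) and a mean of at least 5 CPM (0.0438), and not with relative log expression scaling (0.056), rows summed (0.0508), unnamed rows kept (0.0534), limma-voom (0.0625) or DESeq2 (0.264). The cause was not tested. Library size alone moved the median log2 ratio of all genes with IgG from -0.01 to 0.16 and the share of calls that were higher from 24.0 to 51.8%, which was 34.7% with upper-quartile scaling. DESeq2 called 3 genes higher and 41 lower with IgG (edgeR 43 and 136), and 2 and 20 with IMP2 (edgeR 4 and 77). In the knockout table upper-quartile scaling moved the log2 ratio of Ldhd to total RNA to 1.90 in wild-type and 1.88 in Imp2-/- mice and that of Aldh2 to 1.55 and 1.33, with the median of all genes at 0.15 and 0.16 and the higher share of calls going from 44.4 to 69.5% and from 40.3 to 67.7%.

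The sign changes below are of values that passed under no setting. With library size alone, the IMP2-dependent value was -0.0216 for Ldhd and -0.0064 for Ldhb, and IMP2 against IgG was -0.0806 for Adhfe1. Leaving out 1 library at a time, Imp2-/- against wild-type total RNA ran from -0.0018 (without 17) to 0.12 (without 16) for Ldhd. The IMP2-dependent value ran from -0.0631 (without 24) to 0.11 for Ldhd and from -0.11 (without 21) to 0.19 for Ldhb. Wild-type against Imp2-/- immunoprecipitate ran from -0.12 to 0.0536 (without 23) for Ldhd and from -0.22 to 0.0810 (without 22) for Ldhb. With both tables in a model, Ldhb with IMP2 was -0.0416 and Adhfe1 in IMP2 against IgG -0.20. Leaving out total RNA library 15 or 20 leaves no residual degree of freedom and gives values with no test, and libraries 25 and 26 are the only ones of their groups. To total RNA, the sign turned for Ldhb with IMP2 without 15 (-0.0909), Aldh3a2 with IMP2 without 20 (-0.20) and Adhfe1 without 20 (-0.0166 with IMP2, -0.11 with IgG). Aldh2 with IgG was 1.31 without 15 and 2.11 without 20. The labels pair no libraries. A possible pairing, chosen after the data were seen (16 with 21, 17 with 22, 18 with 23, 19 with 24), has deviations from group means that correlate at 0.72 in wild-type and 0.80 in Imp2-/- libraries over 1189 genes. With 2 libraries per group, the other pairing gives the opposite sign. The signs favour this pairing, which was not tested. With the possible pairing as a block, IMP2-dependent values were 0.05 ± 0.14 for Ldhd, 0.06 ± 0.13 for Ldhb, 0.24 ± 0.13 for Aldh2 and -0.21 ± 0.15 for Adhfe1, 0 genes passed in edgeR, and 136 rather than 29 had an unadjusted p under 0.05. Calls to total RNA went from 118 higher and 148 lower to 311 and 335 in wild-type, and from 126 and 187 to 338 and 348 in Imp2-/- libraries. The IgG table, with 1 residual degree of freedom and 7 to 26 counts for Aldh3a2, limits what could be detected.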

Other observations

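Dbt, the acyltransferase core of the branched-chain ketoacid dehydrogenase that feeds the valine route of Aldh6a1, stood at 1087 and 485 CPM in total RNA of the IgG table, 146 CPM with IMP2 and 630 CPM with IgG. With IMP2 its log2 ratio to total RNA was -2.42 ± 0.46 (adjusted p = 0.00026, edgeR; 6.38e-05 to 0.016 over the alternatives), -1.72 without library 15 and -2.89 without library 20. The log2 ratio of IMP2 to IgG was -2.11 ± 0.49 (adjusted p = 0.0106, edgeR), which compares 1 library with 1 and takes its spread from the total RNA libraries, and in DESeq2 this call was lost (0.697). With IgG the log2 ratio to total RNA was -0.32 ± 0.40 (0.767). Other subunits of the complex did not pass with IMP2: Bckdha stood at 1541 and 1606 CPM in total RNA, 2928 CPM with IMP2 and 2017 CPM with IgG, and Bckdhb at 166, 145, 148 and 148 CPM. The total RNA libraries of Dbt differ widely from each other, 1 library stands for each antibody, and Dbt is not among the genes of the knockout table.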
